A study of Mus musculus with 8 samples.

Results

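The genes for the cytoplasmic translation initiation factors (eIFs) and elongation factors (eEFs) were followed across 3 populations of dendritic cell (DC) progenitors from mouse bone marrow. They were taken by symbol: every probe set that the platform annotation assigns to exactly 1 gene, with a symbol that begins with Eif1 to Eif6 or Eef, leaving out the eIF2 kinases (Eif2ak genes). This gave 68 probe sets of 58 genes, out of 21789 probe sets of 1 gene, and 56 of the 58 genes passed the filter on low signal among 13356 genes tested. Eef1akmt3 and Eif4a3l1 did not pass. Eif1, Eif2s1, Eif3g, Eif4g1, Eif4ebp3 and Eef1g were not analysed here, because no probe set of 1 gene carried their symbols.

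All mice were heterozygous for a Zeb2-GFP fusion reporter. Common DC progenitors (CDPs), marrow cells that give rise to the classical and plasmacytoid DC lineages, were sorted as a Zeb2hi fraction (3 arrays) and as a Zeb2low fraction (3 arrays). Pre-CD8 DCs, the precursors of classical DCs of the CD8a+ kind (cDC1), gave 2 arrays. No treatment, age or sort marker is named in the labels. They do not say whether arrays of a group stand for separate mice or sorts, so every p here reflects only how much these samples varied, possibly for technical reasons. Total RNA, in amounts as small as picograms, was amplified before hybridisation to Affymetrix arrays. All levels below are log2 signals of a probe set, which compare 1 gene between arrays and not different genes with each other, and a difference of 1 is a doubling.

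Translation of a messenger RNA begins when eIF2, loaded with GTP and the initiator transfer RNA, joins the small ribosomal subunit together with eIF1, eIF1A, eIF3 and eIF5. The cap-binding protein eIF4E, the scaffold eIF4G and the helicase eIF4A bring the messenger RNA to this complex, which scans to the start codon before eIF5B and the large subunit join. eEF1A then delivers each aminoacyl transfer RNA and eEF2 moves the ribosome along by a codon. These factors are made in every cell and are abundant in growing ones, and the eIF4E-binding proteins and the kinases of eIF2 and eEF2 hold them back.

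Promoter sequences are shown for 4 members: Eif3m, with the most negative difference between the CDP fractions, Eif4a1, lower in Zeb2low CDPs with each of its probe sets, Eif4e, with 2 copies of the letters CACGTG, and Eif4g3, the member that was higher in pre-CD8 DCs. Each is the 250 bases before a RefSeq start site in build GRCm38.p6, written 5′ to 3′ on the strand of the gene. Where a gene had several start sites, the window with the most of the matches marked here is shown. Capitals mark every match to CACGTG (the palindromic E box that MYC family proteins bind), to CACCTG or its reverse complement CAGGTG (the E box that ZEB proteins bind), and to CGGAAG or its reverse complement CTTCCG (the core of ETS family sites). No match of one of these can be a match of another.
Eif3m, chr2:105017028-105017277, minus strand: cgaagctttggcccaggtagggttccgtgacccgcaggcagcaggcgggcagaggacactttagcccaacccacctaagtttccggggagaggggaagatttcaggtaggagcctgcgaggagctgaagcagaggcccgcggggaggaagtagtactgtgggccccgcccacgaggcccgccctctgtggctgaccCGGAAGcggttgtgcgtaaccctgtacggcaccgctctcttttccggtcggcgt
Eif4a1, chr11:69672424-69672673, minus strand: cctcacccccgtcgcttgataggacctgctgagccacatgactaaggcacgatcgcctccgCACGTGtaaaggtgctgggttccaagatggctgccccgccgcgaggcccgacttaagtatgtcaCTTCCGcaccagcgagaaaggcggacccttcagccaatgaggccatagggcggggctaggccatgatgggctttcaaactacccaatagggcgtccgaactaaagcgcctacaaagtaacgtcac
Eif4e, chr3:138527018-138527267, plus strand: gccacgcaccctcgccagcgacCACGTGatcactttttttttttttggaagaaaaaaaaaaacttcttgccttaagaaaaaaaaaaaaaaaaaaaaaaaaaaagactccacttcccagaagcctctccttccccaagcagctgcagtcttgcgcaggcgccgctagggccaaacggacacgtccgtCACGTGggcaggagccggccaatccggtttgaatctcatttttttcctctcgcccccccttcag
Eif4g3, chr4:137993205-137993454, plus strand: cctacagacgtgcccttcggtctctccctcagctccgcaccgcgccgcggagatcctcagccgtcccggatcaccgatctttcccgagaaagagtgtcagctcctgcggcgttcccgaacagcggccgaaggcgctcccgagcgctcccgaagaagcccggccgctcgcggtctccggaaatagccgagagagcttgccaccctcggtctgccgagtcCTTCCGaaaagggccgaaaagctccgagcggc

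Eif3m and Eif4g3 held 1 match to the ETS core and no E box of either kind in these windows. The Eif4a1 window held 1 CACGTG and 1 ETS core, and the Eif4e window held 2 copies of CACGTG. The window of another Eif4e start site held no match of any of these kinds. RefSeq promoters were found for 45 of the 58 genes, and CACGTG lay in the window of at least 1 start site for 24.4% of these genes, against 6.86% of all 27025 genes with a promoter. The ETS core was found for 44.4% of the members against 15.3% of all genes, and CACCTG or CAGGTG for 6.67% against 19.4%. A match is a description of these letters, and no binding was measured.

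As a check of the labels, all 5 CDP marker genes (Csf1r, Flt3, Kit, Irf8 and Cx3cr1) passed the filter, and their mean log2 signal lay between 8.96 and 9.30 on the Zeb2hi arrays, between 8.67 and 9.01 on the Zeb2low arrays and between 8.77 and 8.84 on the pre-CD8 DC arrays. The mean of 10 cDC1 lineage genes lay between 5.66 and 5.88, between 6.86 and 6.98, and between 7.81 and 8.30 in the same order. Markers of other cell types also moved with the groups. The mean of 12 neutrophil genes lay between 8.76 and 10.29 on the Zeb2hi arrays, between 9.81 and 11.63 on the Zeb2low arrays and between 10.24 and 12.01 on the pre-CD8 DC arrays, and 3 of the 12 were higher in Zeb2low and 4 in pre-CD8 DCs than in Zeb2hi CDPs. Elane and Mpo, granule genes that young progenitors share, were lowest on Zeb2low array 1, where Mpo was at 9.21 and Elane at 7.12. The Zeb2hi arrays had Mpo between 12.56 and 12.63 and Elane between 9.63 and 9.89. The mean of 6 monocyte genes was highest on the 3 Zeb2hi arrays, at up to 8.22, without overlap with the other groups, against 7.36 to 7.73 on the Zeb2low arrays and 6.89 to 7.53 on the pre-CD8 DC arrays. Of these 6 genes, F13a1 was lower in Zeb2low CDPs, and F13a1 and Csf1r were lower in pre-CD8 DCs. The list did not move as 1: between the CDP fractions 3 differences were negative and 3 (Ccr2, Fcgr1 and Cd14) positive. Their median was -0.24, and the most negative was that of F13a1 at -2.47. The mean of 4 erythroid genes lay between 4.21 and 4.62, between 4.75 and 6.26, and between 5.23 and 5.36, and none of the 3 that were tested passed. The mean over 7 genes of T cells, NK cells and innate lymphoid cells, 3 of which were tested, lay between 4.09 and 4.20, between 4.75 and 4.98, and between 4.65 and 4.98. All 3 of those tested (Cd3e, Thy1 and Il7r) were higher in Zeb2low than in Zeb2hi CDPs. The mean of 7 B cell genes lay between 4.72 and 5.13, between 4.98 and 5.48, and between 4.79 and 4.91. Of the 5 that were tested, 1 was higher and 1 lower in Zeb2low than in Zeb2hi CDPs, with differences from -1.06 to 0.96. In pre-CD8 DCs against Zeb2hi CDPs 1 was also higher and 1 lower. Vpreb1 was at 8.59 on Zeb2low array 1 and at 7.28 or less on every other array. The part of these cell types in the differences below was not tested. The median signal of all probe sets lay between 4.91 and 4.98 on the Zeb2hi arrays and between 5.07 and 5.14 on the Zeb2low arrays. It was 4.97 and 5.04 on the pre-CD8 DC arrays. Mean linear intensity lay between 233 and 242, between 195 and 217, and at 220 and 212 in the same order. The CDP fractions thus differed without overlap in both measures of the whole array. The part of this in the differences below was not tested, and fits under other scalings are given at the end.

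Zeb2low CDPs had lower signals than Zeb2hi CDPs for 24 of the 56 translation factor genes and higher signals for none, at an adjusted p under 0.05 in limma. Of all genes tested, 10.3% were lower and 4.5% higher. The median difference of the members was -0.64 on the log2 scale, against 0.03 over all genes, and 47 of the 56 differences were negative, against 47.8% of all genes. The 3 Zeb2low arrays lay below the 3 Zeb2hi arrays without overlap for 35 members, against 21.5% of all genes. No member passed the test upward at an unadjusted p under 0.05 either, where 13.2% of all genes did, whereas 34 passed downward, against 19.6%. Genes of higher signal were as a class more often lower: among the 4412 genes with a mean signal at or above the lower quartile of the members, 17.3% were lower, 4.9% were higher and 64.4% had a negative difference, with a median of -0.18. In bulk samples of this kind, fewer cells of a type and less RNA per cell cannot be told apart.

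The number of calls rested on single arrays more than their direction did. All 24 differences stayed negative when any 1 of the 8 arrays was left out, and 7 of the 24 passed the test in all 8 of these fits: Eif2s3x, Eif3b, Eif3e, Eif3f, Eif3m, Eif4e and Eef1e1. Without Zeb2hi array 2 the count of lower members was 7, and 2.74% of all genes were lower. Without Zeb2hi array 3 it was 8, and 3.06% of all genes were lower. The 17 calls lost without array 2, which include all 16 lost without array 3, had adjusted p values up to 0.133 there. Without Zeb2low array 1 calls on Eef2, Eif1ad and Eif3d ended (adjusted p up to 0.0849). Without Zeb2low array 2 those on Eef2, Eif1ad, Eif2a, Eif3d and Eif5a ended (up to 0.0749), and without Zeb2low array 3 those on Eef1a1, Eef2, Eif1ad, Eif2a, Eif4a2 and Eif4g2 (up to 0.0646).

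**Figure D1:**
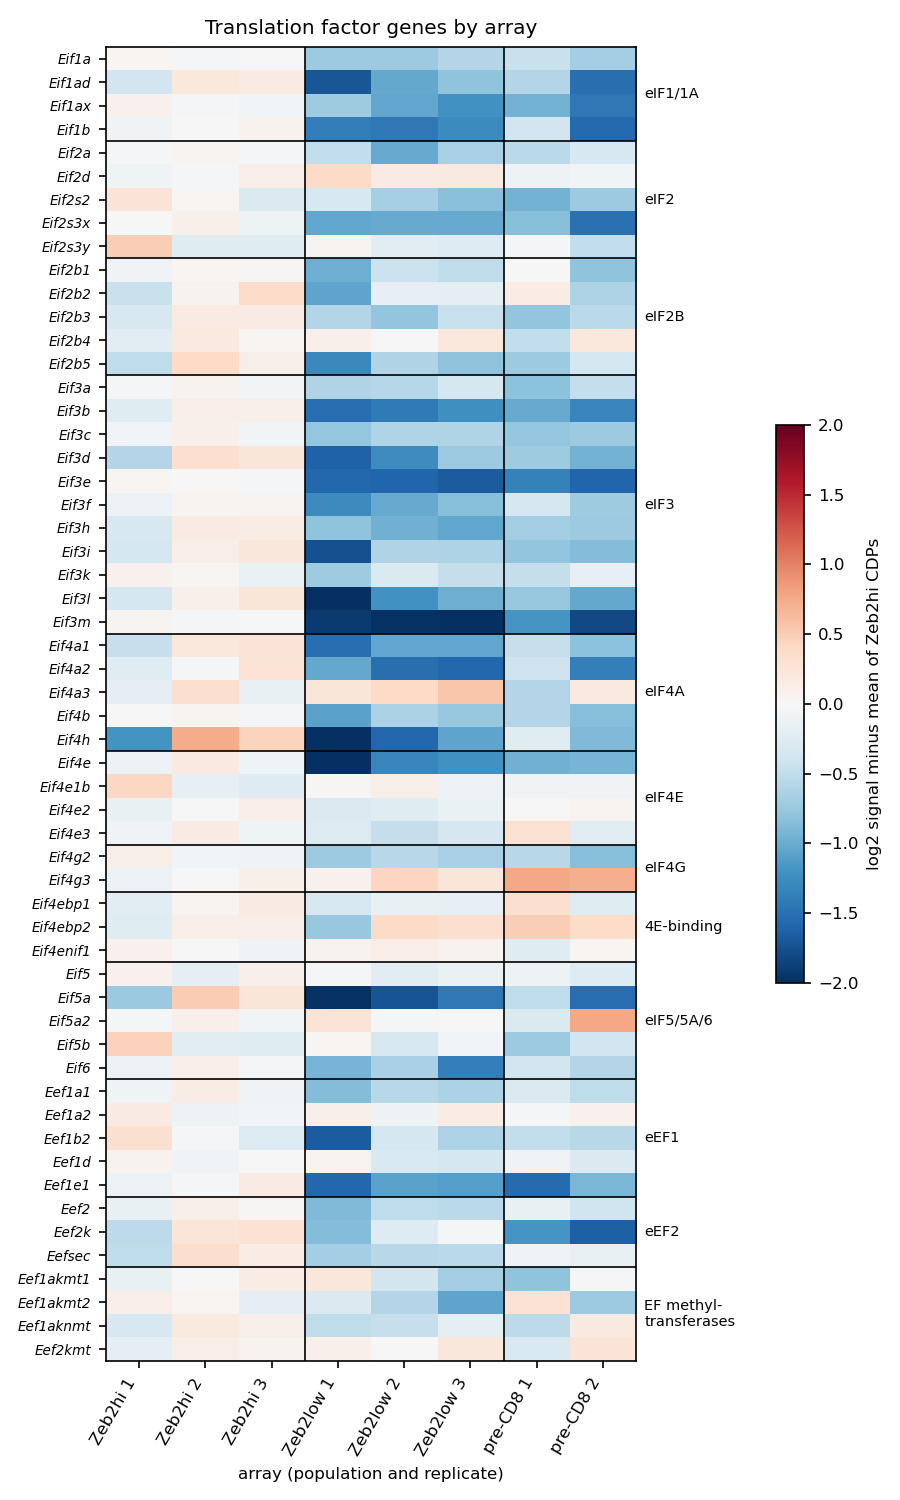
Log2 signal of 56 translation factor genes (vertical axis, grouped by role) on each of the 8 arrays (horizontal axis), shown as the difference from the mean of the 3 Zeb2hi CDP arrays in colour, from -2 (blue) to 2 (red). The eIF3 subunits and the eIF1 and eIF1A genes are blue on all 3 Zeb2low arrays and both pre-CD8 DC arrays, and Eif4g3 is red on both pre-CD8 DC arrays.

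**Figure D2:**
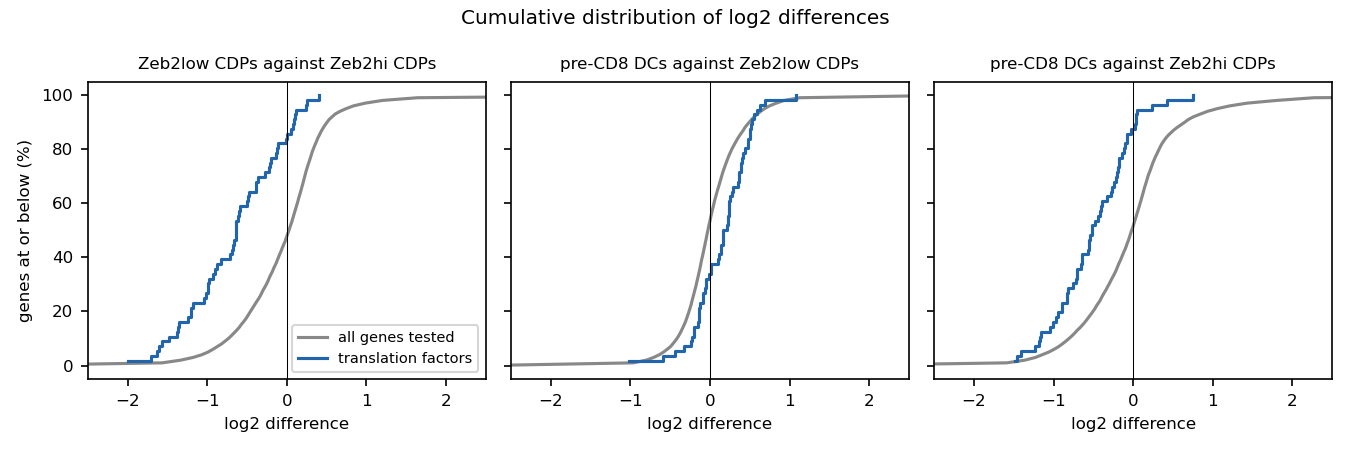
Share of genes (vertical axis, percent) at or below each log2 difference (horizontal axis) for the 56 translation factor genes (blue steps) and all 13356 genes tested (grey line) in 3 comparisons. Against Zeb2hi CDPs the translation factors lie to the left of all genes, with medians of -0.64 for Zeb2low CDPs and -0.52 for pre-CD8 DCs.

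All 4 tested genes with a name that begins with Eif1 were lower in Zeb2low CDPs. The 3 arrays of each fraction did not overlap for any of them. Beside these and the groups of genes below, 10.3% of all genes were lower in Zeb2low CDPs and 21.5% lay lower without overlap. Eif1b, a close relative of eIF1 that guards against initiation at wrong codons, had log2 signals of 8.59, 8.66 and 8.73 in Zeb2hi CDPs, of 7.28, 7.23 and 7.38 in Zeb2low CDPs, and of 8.27 and 7.10 in pre-CD8 DCs. The first pre-CD8 DC array lay between both CDP fractions and the second below all CDP arrays. The difference between Zeb2low and Zeb2hi CDPs was -1.36 ± 0.26 (limma standard error, adjusted p = 0.0131). Eif1ax, the X-linked copy of eIF1A, which holds the scanning complex in its open form, had signals of 10.35, 10.23 and 10.20 in Zeb2hi CDPs, 9.55, 9.22 and 9.04 in Zeb2low CDPs, and 9.31 and 8.84 in pre-CD8 DCs. It was low on all 5 arrays outside the Zeb2hi fraction, by -0.99 ± 0.18 in Zeb2low CDPs (adjusted p = 0.0116) and by -1.19 ± 0.21 in pre-CD8 DCs (adjusted p = 0.00636). The autosomal copy Eif1a differed by -0.68 ± 0.13 between the CDP fractions (adjusted p = 0.014), and Eif1ad, which carries an eIF1A-like domain, by -1.18 ± 0.31 (adjusted p = 0.0365). In a fit that adds the replicate number of all 8 arrays as a block (the all-array replicate block) the call on Eif1ad ended (adjusted p = 0.0628). That block also pairs the pre-CD8 DC arrays by number, although their deviations ran opposite to same-numbered Zeb2low arrays (r = -0.40 and -0.59).

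Of the 5 tested genes of eIF2 and its partners, 2 were lower in Zeb2low CDPs. Eif2s3x, the X-linked gene of the gamma subunit that holds GTP and the initiator transfer RNA, had signals of 9.91, 10.02 and 9.82 in Zeb2hi CDPs, 8.88, 8.91 and 8.91 in Zeb2low CDPs, and 9.06 and 8.43 in pre-CD8 DCs. The 3 Zeb2low arrays lay close together and about 1 log2 unit under the Zeb2hi arrays, a difference of -1.02 ± 0.18 (adjusted p = 0.00894). Eif2s3y, the Y-linked copy, had signals of 8.44, 7.70 and 7.70, then 8.01, 7.73 and 7.69, then 7.91 and 7.46 in the same order of groups. These groups overlapped, and the difference of -0.14 ± 0.23 did not pass the test (adjusted p = 0.694). The difference between the X-linked and the Y-linked copy shifted by -0.88 from Zeb2hi to Zeb2low CDPs. An exact two-sided permutation test of 3 against 3 arrays gave p = 0.1, the smallest it allows (0.133 adjusted over 4 pairs of related genes). For the pair of Eif1ax and Eif1ad, the shift was 0.19 (exact p = 0.7).

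Eif2a, a factor named for its separate way of bringing transfer RNA to the ribosome, was lower in Zeb2low CDPs by -0.72 ± 0.16 (adjusted p = 0.0232), a call that ended in the all-array replicate block (adjusted p = 0.0547). Eif2s2, the beta subunit of eIF2, differed by -0.61 ± 0.20 between the CDP fractions (adjusted p = 0.071) in the probe set with its highest signal. Another probe set of Eif2s2 differed by -0.09 ± 0.23 (adjusted p = 0.798 with every probe set in the fit). The first passed with the replicate block and only the 6 CDP arrays in the fit (adjusted p = 0.0118). In that fit, here and below, 19.4% of all genes were lower, against 10.3% in the main fit. Its pairing was read from these same values, so a pass there is no independent support. Eif2d, which can deliver transfer RNA to the ribosome without GTP, had signals of 7.12, 7.15 and 7.33 in Zeb2hi and 7.59, 7.36 and 7.39 in Zeb2low CDPs. It was the only member whose Zeb2low arrays all lay above the Zeb2hi arrays, against 20.2% of all genes, and it did not pass the test.

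None of the 5 genes of eIF2B, the exchange factor that recharges eIF2 with GTP, passed the test between the CDP fractions, although 4 of the 5 differences were negative. Eif2b5, the catalytic subunit, had signals of 7.04, 7.94 and 7.67 in Zeb2hi CDPs and 6.26, 6.94 and 6.74 in Zeb2low CDPs. The arrays did not overlap, and the difference was -0.90 ± 0.27 (adjusted p = 0.054). Eif2b3 differed by -0.61 ± 0.18 (adjusted p = 0.0548) and Eif2b1, a regulatory subunit, by -0.64 ± 0.23 (adjusted p = 0.0927). In the all-array replicate block Eif2b5 passed (adjusted p = 0.024). In the block over the 6 CDP arrays alone Eif2b1 (0.0162), Eif2b3 (0.0296) and Eif2b5 (0.00328) all passed, where 19.4% of all genes were lower.

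The eIF3 complex, the largest initiation factor and the platform on which the others assemble on the small subunit, was measured in 11 subunits. All 11 tested had a negative difference between Zeb2low and Zeb2hi CDPs with no overlap between the arrays, against 21.5% of all genes. Of the 11, 8 passed the test, against 10.3% of all genes, and the median difference was -1.04. Eif3m, a subunit at the edge of the complex, had signals of 9.99, 9.89 and 9.92 in Zeb2hi CDPs, 8.02, 7.95 and 7.83 in Zeb2low CDPs, and 8.76 and 8.13 in pre-CD8 DCs. Its Zeb2low arrays were the lowest and the pre-CD8 DC arrays lay between them and the Zeb2hi arrays. The difference of -2.00 ± 0.18 (adjusted p = 0.000675) was the most negative of all members and equals a signal 4.0 times lower. Eif3e had signals of 9.64, 9.61 and 9.56, then 8.04, 8.02 and 7.94, then 8.26 and 8.02. Within each fraction of CDPs these values differed little, and the Zeb2low signal was lower, with a difference of -1.60 ± 0.13 (adjusted p = 0.0005).

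Eif3b, a core subunit that carries the binding platform for other subunits, had signals of 8.85, 9.23 and 9.21 in Zeb2hi CDPs, 7.58, 7.68 and 7.88 in Zeb2low CDPs, and 8.09 and 7.79 in pre-CD8 DCs. All 5 arrays outside the Zeb2hi fraction were low, by -1.39 ± 0.17 in the Zeb2low fraction (adjusted p = 0.00272). Eif3l had signals of 10.16, 10.62 and 10.75, then 8.26, 9.30 and 9.53, then 9.75 and 9.49. Zeb2low array 1 was more than 1 unit under the other arrays of its group, and the difference was -1.48 ± 0.32 (adjusted p = 0.0193), or -1.09 without that array. Differences of the other called subunits were -1.21 for Eif3d, a subunit that can bind the cap itself, -1.04 for Eif3f, -0.93 for Eif3h and -0.67 for Eif3c. The subunits that did not pass were Eif3a, the largest scaffold of the complex (-0.50 ± 0.15, adjusted p = 0.0539), Eif3i (-0.99 ± 0.31, adjusted p = 0.0649, or -0.60 without Zeb2low array 1) and Eif3k (-0.49 ± 0.16, adjusted p = 0.0771). Eif3i passed in the all-array replicate block (adjusted p = 0.0482). In the block over the CDP arrays alone Eif3a (0.0295), Eif3i (0.00611) and Eif3k (0.0427) passed as well, where 19.4% of all genes were lower.

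**Figure D3:**
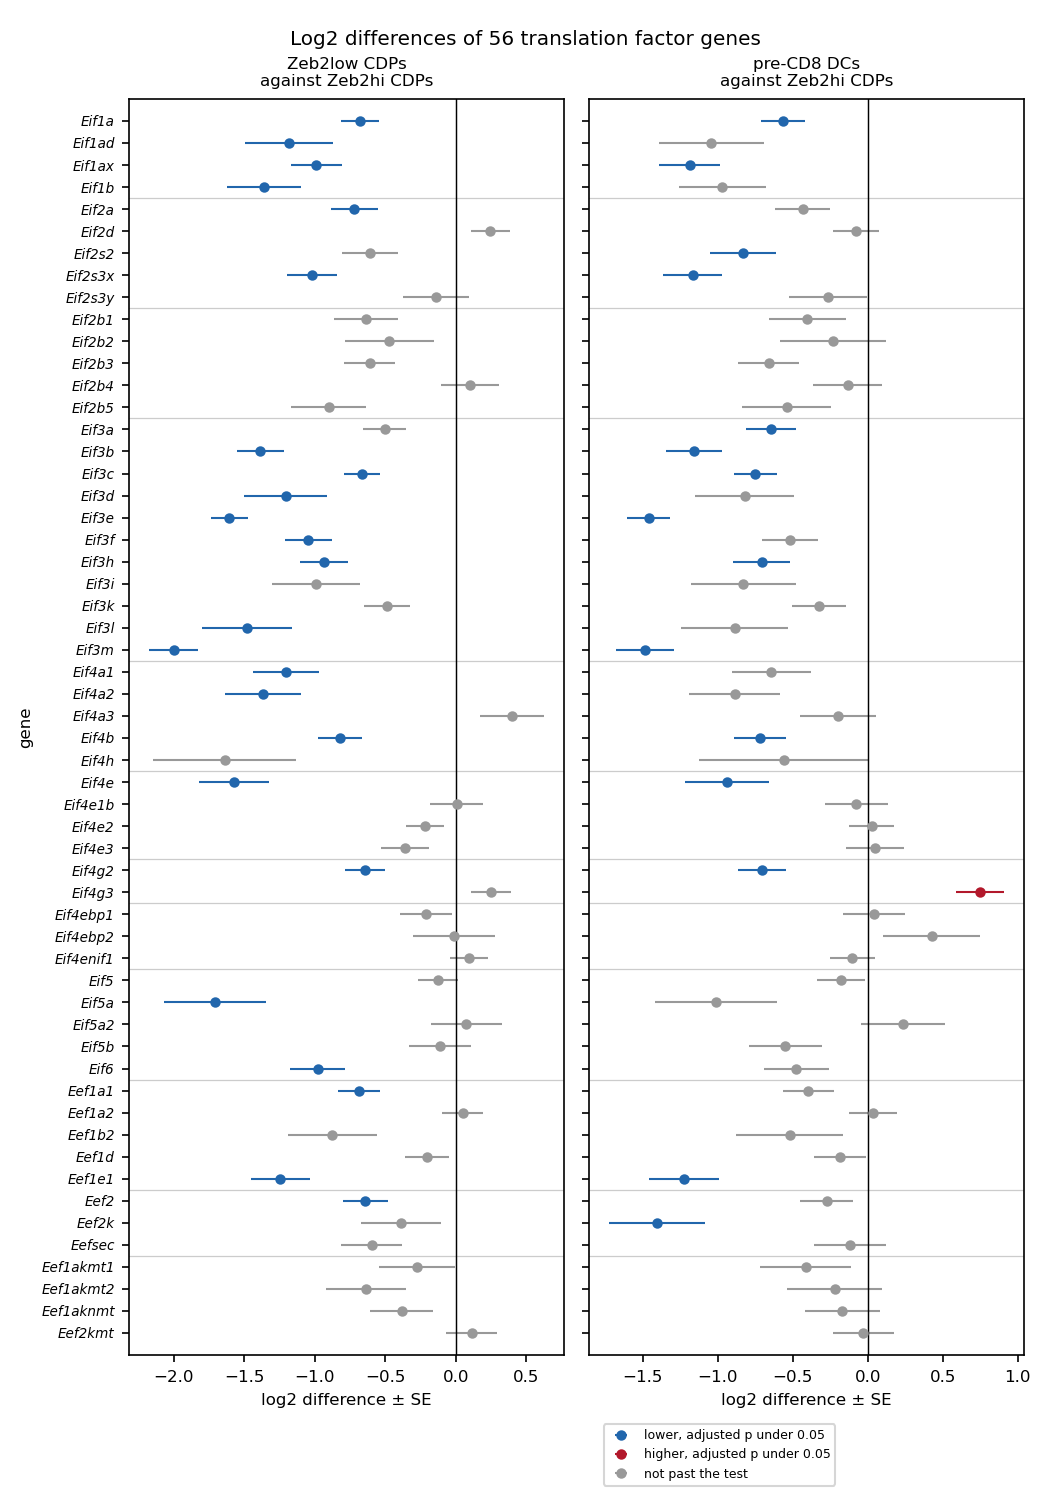
Log2 difference ± limma standard error (horizontal axes) of 56 translation factor genes (vertical axis, grouped by role) for Zeb2low CDPs (left) and pre-CD8 DCs (right) against Zeb2hi CDPs. Blue points are the 24 and 15 genes that were lower at an adjusted p under 0.05, the red point is Eif4g3, and grey points did not pass.

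Among the genes of the eIF4A helicases and their cofactors, 3 of 5 were lower in Zeb2low CDPs. Eif4a1, the main helicase that unwinds the leader of messenger RNAs, had signals of 11.21, 11.88 and 11.92 in Zeb2hi CDPs, 10.14, 10.62 and 10.63 in Zeb2low CDPs, and 11.20 and 10.84 in pre-CD8 DCs. Array 1 was the lowest of its group in both CDP fractions, and the pre-CD8 DC arrays lay between the fractions. The difference between the CDP fractions was -1.20 ± 0.24 (adjusted p = 0.014). Eif4a2, its close homologue, was lower, with a difference of -1.37 ± 0.27 (adjusted p = 0.0146), and Eif4b, which stimulates the helicase, by -0.82 ± 0.16 (adjusted p = 0.0128). Eif4a3, the homologue that works in the exon junction complex rather than in initiation, had signals of 8.71, 9.21 and 8.74 in Zeb2hi CDPs, 9.13, 9.28 and 9.44 in Zeb2low CDPs, and 8.30 and 9.07 in pre-CD8 DCs. These overlapped, with a difference of 0.40 ± 0.23 (adjusted p = 0.254), the most positive among the members. The difference between Eif4a1 and Eif4a3 shifted by -1.60 between the CDP fractions (exact permutation p = 0.1, the smallest possible; 0.133 adjusted over 4 pairs).

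Eif4h, a second helper of the helicase, was the most variable of this group. It had signals of 7.80, 9.75 and 9.45 in Zeb2hi CDPs, 6.71, 7.44 and 7.95 in Zeb2low CDPs, and 8.76 and 8.13 in pre-CD8 DCs. Zeb2hi array 1 lay within the range of the Zeb2low arrays, and the difference of -1.64 ± 0.51 did not pass (adjusted p = 0.0615). In the block over the CDP arrays alone it passed (adjusted p = 0.00335), where 19.4% of all genes were lower. Zeb2hi array 1 lay below the mean of its group for 40 of the 56 members, and Zeb2low array 1 for 35 of the 56.

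Of the 4 cap-binding genes, 1 was lower in Zeb2low CDPs. Eif4e, the cap-binding protein whose supply limits cap-dependent initiation, had signals of 8.49, 8.80 and 8.51 in Zeb2hi CDPs, 6.42, 7.29 and 7.39 in Zeb2low CDPs, and 7.65 and 7.68 in pre-CD8 DCs in the probe set with its highest signal. The 3 groups did not overlap there, and the CDP fractions differed by -1.57 ± 0.25 (adjusted p = 0.00664), a call that 2 further probe sets of the gene did not give. Eif4e2, a homologue that binds caps while repressing translation, differed by -0.22 ± 0.13 (adjusted p = 0.279), and Eif4e3, a homologue that does not bind caps in the usual way, by -0.36 ± 0.17 (adjusted p = 0.182). Eif4e1b, known from oocytes, had signals between 4.53 and 5.19 on all 8 arrays in the probe set with its highest signal.

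Several members had more than 1 probe set, and these did not always move alike. On this array the identifiers of most probe sets follow the order of genes along the chromosomes: 96.6% of 21698 probe sets had most of their 20 neighbours in identifier order on the chromosome of their own gene. The highest-signal probe sets of Eif3m, Eif4a1, Eif2s2, Eif4e and Eif5a had 0 of 20 neighbours there, and each of these genes had another probe set among neighbours of its own chromosome. Where the probes of these sets align was not tested. The comparison was added after seeing the data.

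For Eif3m the other probe set had signals of 8.49, 8.36 and 7.81 in Zeb2hi CDPs, 6.38, 5.83 and 6.14 in Zeb2low CDPs, and 7.20 and 6.61 in pre-CD8 DCs. Its order of groups was that of the first probe set, with a difference of -2.10 ± 0.24 between the CDP fractions (adjusted p = 0.00235 with every probe set in the fit). All 3 probe sets of Eif4a1 were lower in Zeb2low CDPs, by -1.20, -0.94 and -0.87. For Eif4e the probe set among its own neighbours had signals of 7.01, 6.76 and 6.75, then 6.64, 6.39 and 6.62, then 6.20 and 6.57, with a difference of -0.29 ± 0.16 (adjusted p = 0.233). The remaining probe set of Eif4e differed by -0.47 ± 0.18 (adjusted p = 0.115). For Eif5a the corresponding probe set differed by -0.66 ± 0.23 (adjusted p = 0.0908), and for Eif2s2 it differed by -0.19 ± 0.26 between pre-CD8 DCs and Zeb2hi CDPs (adjusted p = 0.648), where the first probe set was called lower. The calls on Eif3m and Eif4a1 thus held in each of their probe sets, and those on Eif4e, Eif5a and Eif2s2 rested on 1 probe set each. The second probe set of Eif4e1b, also with 0 of 20 neighbours on its own chromosome, was higher in pre-CD8 DCs than in Zeb2hi CDPs by 0.57 ± 0.15 (adjusted p = 0.0349 with every probe set in the fit), and the first was not called. With the probe sets among own neighbours in place of the highest ones, 22 members and 10.1% of all genes were lower in Zeb2low CDPs.

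**Figure D4:**
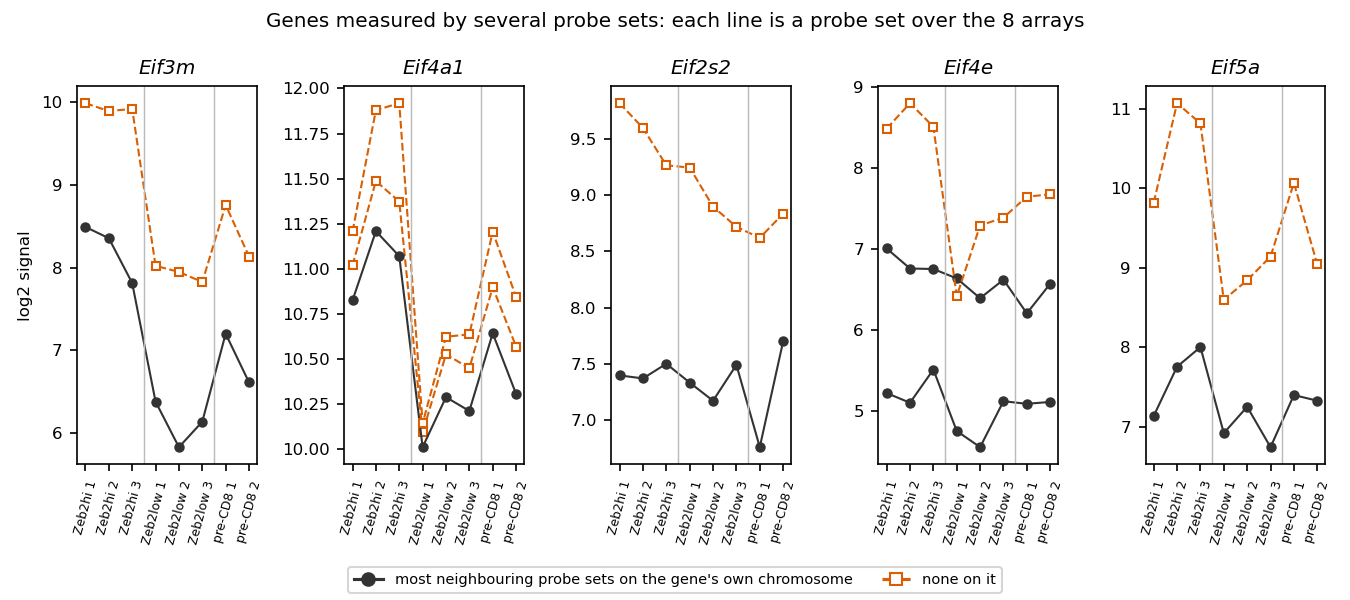
Log2 signal (vertical axes) of every probe set of 5 genes over the 8 arrays (horizontal axes), with filled circles and solid lines for probe sets that have most neighbours in identifier order on the gene's own chromosome and open squares and dashed lines for those that have 0 of 20. The lines of Eif3m and of Eif4a1 run parallel, and those of Eif4e, Eif5a and Eif2s2 do not.

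Of the 2 scaffold genes of the cap complex, 1 was lower in Zeb2low CDPs. Eif4g2, a relative of eIF4G that lacks the eIF4E-binding part and serves cap-independent initiation, had signals of 10.79, 10.62 and 10.60 in Zeb2hi CDPs, 9.94, 10.11 and 10.02 in Zeb2low CDPs, and 10.11 and 9.82 in pre-CD8 DCs. It was lower, with a difference of -0.65 ± 0.14 in Zeb2low CDPs (adjusted p = 0.0204) and by -0.71 ± 0.16 in pre-CD8 DCs (adjusted p = 0.0177). Eif4g3, a full-length eIF4G, had signals of 8.25, 8.38 and 8.47 in Zeb2hi CDPs, 8.46, 8.79 and 8.60 in Zeb2low CDPs, and 9.14 and 9.09 in pre-CD8 DCs. It was highest in pre-CD8 DCs, whose 2 arrays lay above all 6 CDP arrays, and differed from Zeb2hi CDPs by 0.75 ± 0.16 (adjusted p = 0.0148). The call ended without Zeb2hi array 2 or without pre-CD8 DC array 1, where the adjusted p was up to 0.0669. Between the CDP fractions Eif4g3 differed by 0.25 ± 0.14 (adjusted p = 0.249), and the difference between Eif4g2 and Eif4g3 shifted by -0.90 (exact permutation p = 0.1, the smallest possible; 0.133 adjusted over 4 pairs).

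The genes that restrain eIF4E did not pass in any comparison. Eif4ebp1, the best known eIF4E-binding protein and a target of the mTORC1 kinase, had signals of 6.85, 7.11 and 7.22 in Zeb2hi CDPs, 6.74, 6.91 and 6.90 in Zeb2low CDPs, and 7.39 and 6.81 in pre-CD8 DCs. Eif4ebp2, the related binding protein, had signals of 9.41, 9.79 and 9.77, then 8.90, 10.05 and 9.98, then 10.15 and 10.02. Apart from Zeb2low array 1 its values were as high outside the Zeb2hi fraction as within it, and its difference between the CDP fractions was -0.01 ± 0.29 (adjusted p = 0.977), or 0.36 without Zeb2low array 1. Eif4ebp1 differed by -0.21 ± 0.18 (adjusted p = 0.439). Eif4enif1, which carries eIF4E into the nucleus, stayed between 7.55 and 7.93 on all 8 arrays in the probe set with its highest signal. Its second probe set differed by -0.49 ± 0.15 between the CDP fractions (adjusted p = 0.0636 with every probe set in the fit).

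**Figure D5:**
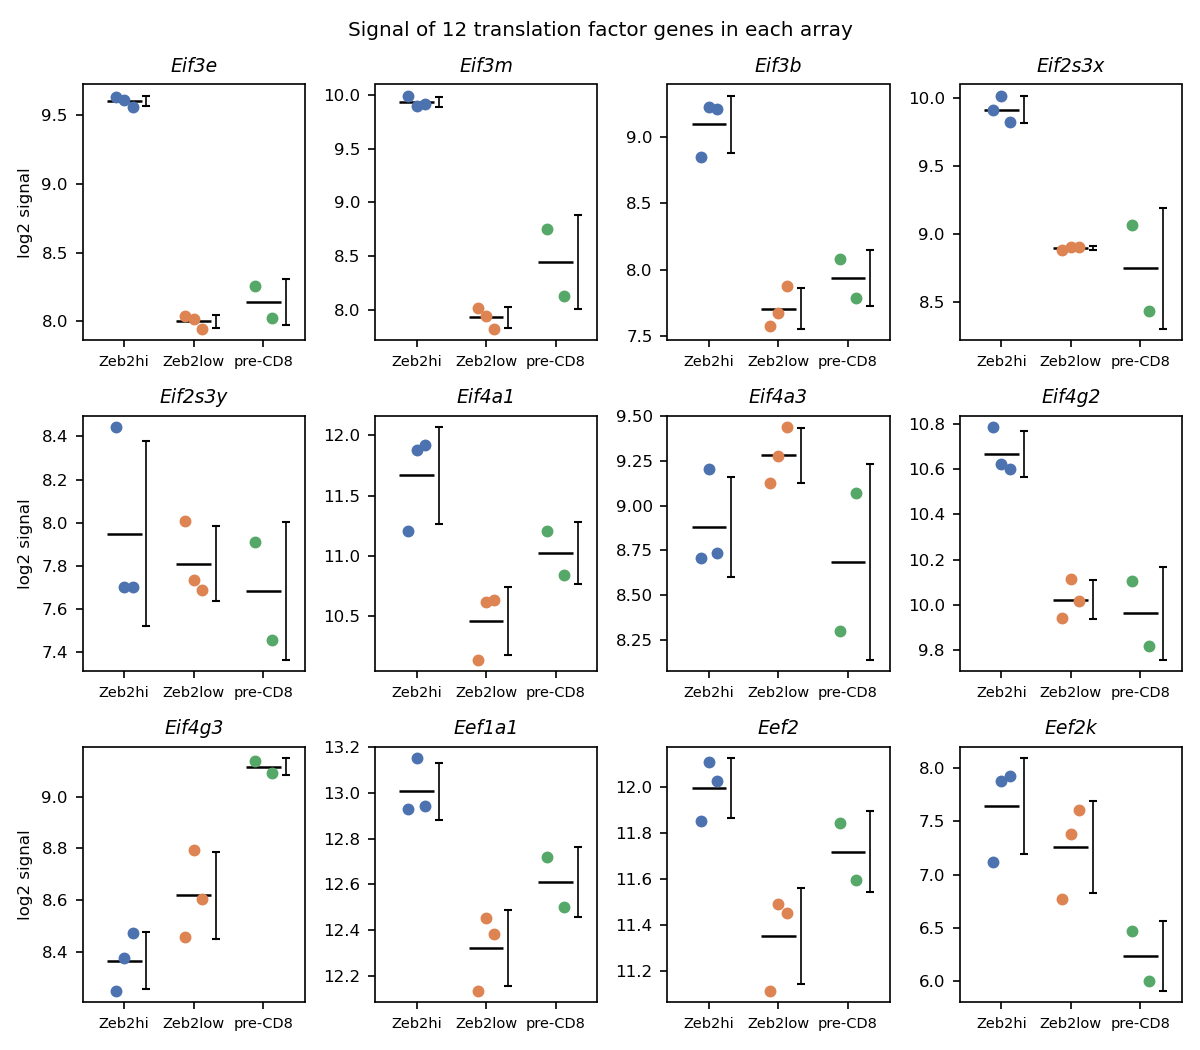
Log2 signal (vertical axes) of 12 translation factor genes on each array (points), by population, with the mean as a line and the standard deviation over the 3, 3 or 2 arrays as a bar beside it. Eif3e, Eif3m, Eif3b and Eif2s3x separate the Zeb2hi arrays from the other 5, Eif2s3y and Eif4a3 overlap, Eif4g3 is highest and Eef2k lowest in pre-CD8 DCs.

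Of the factors of subunit joining and the eIF5A group, 2 of 5 were lower in Zeb2low CDPs. Eif5a, which carries the amino acid hypusine and helps ribosomes past poor substrates, had signals of 9.82, 11.07 and 10.82 in Zeb2hi CDPs, 8.60, 8.84 and 9.14 in Zeb2low CDPs, and 10.07 and 9.05 in pre-CD8 DCs. The difference between the CDP fractions was -1.71 ± 0.36 (adjusted p = 0.0182), in the 1 probe set described above. Eif6, which keeps the large subunit from joining too early, was lower, with a difference of -0.98 ± 0.19 (adjusted p = 0.0144), with signals of 7.48, 7.74 and 7.58 against 6.68, 6.95 and 6.24. Eif5, which triggers GTP hydrolysis by eIF2, and Eif5b, which joins the subunits, differed by -0.13 ± 0.14 (adjusted p = 0.55) and -0.11 ± 0.22 (adjusted p = 0.743), and both signs turned under quantile normalization. Eif5a2, the second eIF5A gene, had signals between 4.96 and 6.02.

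Of 5 tested genes with a name that begins with Eef1, methyltransferases aside, Eef1a1 and Eef1e1 were lower in Zeb2low CDPs. Eef1a1, which delivers aminoacyl transfer RNA, had signals of 12.93, 13.15 and 12.94 in Zeb2hi CDPs, 12.14, 12.45 and 12.38 in Zeb2low CDPs, and 12.72 and 12.50 in pre-CD8 DCs. The 3 groups did not overlap, the pre-CD8 DC arrays lay between the CDP fractions, and the CDP fractions differed by -0.68 ± 0.15 (adjusted p = 0.0204). Eef1e1, also known as AIMP3, is a part of the complex of transfer RNA synthetases and not a subunit of eEF1. It had signals of 7.68, 7.75 and 7.95, then 6.23, 6.72 and 6.69, then 6.25 and 6.88. It was low on all 5 arrays outside the Zeb2hi fraction, by -1.25 ± 0.21 in Zeb2low CDPs (adjusted p = 0.008) and by -1.23 ± 0.23 in pre-CD8 DCs (adjusted p = 0.00912). Without pre-CD8 DC array 1 the second of these calls ended (adjusted p = 0.0581). Eef1b2, which recharges eEF1A with GTP, differed by -0.87 ± 0.32 between the CDP fractions (adjusted p = 0.0976), and its Zeb2low array 1 (10.07) lay over 1 unit under the other 2 (11.38 and 11.12). Without that array the difference was -0.48. Eef1a2, the form of muscle and neurons, stayed between 5.27 and 5.53.

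Eef2, the translocase of the ribosome, had signals of 11.85, 12.11 and 12.02 in Zeb2hi CDPs, 11.11, 11.49 and 11.45 in Zeb2low CDPs, and 11.84 and 11.59 in pre-CD8 DCs. It was lowest in Zeb2low CDPs, by -0.64 ± 0.16 (adjusted p = 0.0307), a call that ended in the all-array replicate block (adjusted p = 0.0599). Its kinase Eef2k, which switches eEF2 off, had signals of 7.12, 7.88 and 7.93, then 6.78, 7.38 and 7.61, then 6.47 and 6.01. The CDP fractions overlapped (-0.39 ± 0.29, adjusted p = 0.363), and both pre-CD8 DC arrays lay below all CDP arrays. Pre-CD8 DCs differed from Zeb2hi CDPs by -1.41 ± 0.32 (adjusted p = 0.0186), and the second probe set of the gene by -0.74 ± 0.19 (adjusted p = 0.0328 with every probe set in the fit). The first call ended without Zeb2hi array 2 or 3 and without pre-CD8 DC array 2 (adjusted p up to 0.0915). Eefsec, the factor that delivers selenocysteine, differed by -0.60 ± 0.21 between the CDP fractions (adjusted p = 0.0954). It passed with the replicate block and only the 6 CDP arrays in the fit (adjusted p = 0.0366), where 19.4% of all genes were lower. None of the 4 tested methyltransferases of eEF1A and eEF2 passed.

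Between pre-CD8 DCs and Zeb2hi CDPs 15 members were lower and 1, Eif4g3, higher. Of all genes 11.1% were lower and 6.51% higher. The median of the members was -0.52 against -0.02 over all genes, and 49 of the 56 differences were negative, against 51.5% of all genes. For 32 members the pre-CD8 DC arrays lay wholly below the Zeb2hi arrays, against 27.1% of all genes, and for 2 wholly above, against 21.4%. At an unadjusted p under 0.05, 27 members were lower and 1 higher, where 19.6% and 12.2% of all genes were. Among the 4412 genes of like or higher signal 16.2% were lower, 8.07% were higher and 62.3% had a negative difference. The Zeb2hi arrays serve both comparisons, so that the lists of lower members are not independent of each other. Named side by side, 12 members were lower in both, 12 in Zeb2low CDPs alone and 3 in pre-CD8 DCs alone (Eef2k, Eif2s2 and Eif3a). The share of all genes lower in both was not counted, so these numbers only describe the members. A call in 1 comparison and not in the other is no test of a difference between them.

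Of the eIF3 subunits 6 of 11 were lower in pre-CD8 DCs than in Zeb2hi CDPs, against 11.1% of all genes. The largest differences were those of Eif3m at -1.49 ± 0.20 (adjusted p = 0.00222), Eif3e at -1.46 ± 0.15 (adjusted p = 0.000633) and Eif3b at -1.16 ± 0.19 (adjusted p = 0.00484). Eif3c, whose signals were 10.05, 10.20 and 10.06 in Zeb2hi CDPs against 9.33 and 9.38, differed by -0.75 ± 0.15 (adjusted p = 0.00985), Eif3h by -0.71 and Eif3a by -0.65. Eif2s3x was lower, with a difference of -1.17 ± 0.20 (adjusted p = 0.00552). The main elongation factors and the main helicase were not called in this comparison: Eef1a1 differed by -0.40 ± 0.17 (adjusted p = 0.142), Eef2 by -0.28 ± 0.18 (adjusted p = 0.334) and Eif4a1 by -0.64 ± 0.26 (adjusted p = 0.13). Calls on Eif1ax, Eif2s3x, Eif3b, Eif3c, Eif3e and Eif3m passed in all 8 fits without 1 array, and the other 10 calls were each lost in at least 1 of them (adjusted p up to 0.163). The count of lower members was 7 without Zeb2hi array 2, and 8 without Zeb2hi array 3 or without pre-CD8 DC array 2, where 5.33%, 5.81% and 8.14% of all genes were lower. In the all-array replicate block it was 10, with 7.47% of all genes lower. The calls on Eif1a (adjusted p = 0.0846), Eif3a (0.0747), Eif3h (0.0904), Eif4b (0.073) and Eif4e (0.0833) ended there. Deviations of pre-CD8 DC and Zeb2hi arrays of the same number were negatively correlated (r = -0.17 and -0.31). Deviations in a group of 2 arrays mirror each other, so these values cannot settle whether the numbers pair.

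Between pre-CD8 DCs and Zeb2low CDPs no member passed the limma test in either direction. Of all genes 0.337% were higher and 0.217% lower. At an unadjusted p under 0.05, 4 members were higher and 2 lower, where 6.23% and 6.96% of all genes were. The median difference was 0.19 against -0.03 over all genes, and 37 of the 56 members had a positive difference and 19 a negative one, which 53.7% of all genes had. Groups did not overlap for 13 members on the higher side and 5 on the lower, against 12.4% and 15.4% of all genes. The largest positive differences, chosen after their values were seen, were those of Eif4h at 1.08 ± 0.57 (adjusted p = 0.446) and Eif5a at 0.70 ± 0.41 (adjusted p = 0.499), and the most negative was that of Eef2k at -1.02 ± 0.32 (adjusted p = 0.231). For Eif3f both pre-CD8 DC arrays (10.54 and 10.17) lay above the 3 Zeb2low arrays (9.60, 9.87 and 10.02), with a difference of 0.52 ± 0.19 (adjusted p = 0.284). A p that misses the threshold does not show that the groups were alike.

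Over the 3 groups together, 25 of the 56 members passed limma's moderated F test at an adjusted p under 0.05, against 17.9% of all genes. Without Zeb2hi array 2 this count was 6, with 5.54% of all genes past the test, and without Zeb2hi array 3 it was 7, with 6.48%.

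Genes that work with these factors were counted in lists chosen by function. Among 9 genes of termination and ribosome recycling 4 were lower and none higher in Zeb2low CDPs, and 5 were lower and none higher in pre-CD8 DCs, both against Zeb2hi CDPs. The shares of all genes, against which this and the following lists are set, were 10.3% lower and 4.5% higher in Zeb2low CDPs, and 11.1% lower and 6.51% higher in pre-CD8 DCs. The median differences of the list were -0.61 in both comparisons. Gspt1, the release factor eRF3a, had mean signals of 9.59 in Zeb2hi CDPs, 8.52 in Zeb2low CDPs and 8.19 in pre-CD8 DCs. It was lower, with a difference of -1.07 ± 0.15 (adjusted p = 0.00391) in Zeb2low CDPs and by -1.40 ± 0.17 (adjusted p = 0.00132) in pre-CD8 DCs. Abce1, which splits ribosomes for reuse, was lower, with a difference of -0.87 ± 0.18 and -1.18 ± 0.20, with adjusted p values of 0.0156 and 0.00543.

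Of 11 genes of poly(A) binding and cap-complex partners 3 were lower and none higher in Zeb2low CDPs, where 10.3% of all genes were lower, and 1 was lower in pre-CD8 DCs, where 11.1% were. The median difference of the list in Zeb2low CDPs was -0.04. Pdcd4, an inhibitor of eIF4A, had mean signals of 9.12, 7.91 and 8.08 in the order of the groups, and was lower, with a difference of -1.21 ± 0.14 in Zeb2low CDPs (adjusted p = 0.00264) and by -1.04 ± 0.16 in pre-CD8 DCs (adjusted p = 0.00414). Pabpc1, the main cytoplasmic poly(A)-binding protein, was lower, with a difference of -0.67 ± 0.16 in Zeb2low CDPs (adjusted p = 0.029).

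Of 11 genes of mTORC1 and MNK signalling 1 was lower in Zeb2low CDPs, a share near the 10.3% of all genes. Rheb, the GTPase that activates mTORC1, with means of 8.60 in Zeb2hi, 6.97 in Zeb2low and 7.75 in pre-CD8 DCs, differed by -1.63 ± 0.25 (adjusted p = 0.00568). No gene of that list passed in pre-CD8 DCs against Zeb2hi CDPs. Of 12 genes of the eIF2 kinases and their stress response 1 was lower in Zeb2low CDPs and 1 higher in pre-CD8 DCs, shares near the 10.3% lower and 6.51% higher of all genes. The first was Eif2ak1, the haem-regulated kinase, at -0.68 ± 0.13 (adjusted p = 0.0139), and the second Ppp1r15b, a phosphatase subunit that reverses the kinases, at 0.64 ± 0.17 (adjusted p = 0.0372). The call on Ppp1r15b ended in the all-array replicate block (adjusted p = 0.0728).

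The enzymes that modify eIF5A and eEF2 had 2 lower genes of 10 in Zeb2low CDPs and 3 of 10 in pre-CD8 DCs, where 10.3% and 11.1% of all genes were lower. Dph5, of the diphthamide pathway that modifies eEF2, was lower, with a difference of -1.12 ± 0.18 (adjusted p = 0.00644) and -1.04 ± 0.20 (adjusted p = 0.00868). Dph6, of the same pathway, had means of 7.11 in Zeb2hi CDPs, 6.56 in Zeb2low CDPs and 5.93 in pre-CD8 DCs, and was lower in pre-CD8 DCs by -1.18 ± 0.16 (adjusted p = 0.00264).

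Of 10 mitochondrial translation factors 4 were lower in Zeb2low CDPs and 3 in pre-CD8 DCs, against 10.3% and 11.1% of all genes. Tufm, the mitochondrial counterpart of eEF1A, had means of 7.95, 6.24 and 6.70 and differed by -1.70 ± 0.26 between the CDP fractions (adjusted p = 0.00564). Tsfm, its exchange factor, differed by -1.12 ± 0.24 (adjusted p = 0.0182). Guf1, a mitochondrial elongation factor, was the only gene of these lists called between pre-CD8 DCs and Zeb2low CDPs, at -1.12 ± 0.17 (adjusted p = 0.0278), and it passed in 1 of the 8 fits without 1 array. Of 5 genes of the selenocysteine machinery 1 was lower in Zeb2low CDPs and 2 in pre-CD8 DCs, against the same shares, with Sephs2, which makes the selenium donor, lower in both (-0.77 ± 0.17 and -0.78 ± 0.19, adjusted p = 0.0204 and 0.0227).

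Calls on these genes rested in part on single arrays. Those on Gspt1 and Pdcd4 in both comparisons with Zeb2hi CDPs, on Rheb and Dph5 in Zeb2low CDPs, and on Abce1, Dph6 and Guf1 in pre-CD8 DCs against Zeb2hi CDPs passed in all 8 fits without 1 array. In Zeb2low CDPs the calls on Abce1, Eif2ak1, Tufm and Tsfm ended without Zeb2hi array 2 and without Zeb2hi array 3 (adjusted p up to 0.0789). Those on Pabpc1 (up to 0.115), Sephs2 (up to 0.0865) and Dph6 (up to 0.117) ended without either of these arrays and also without Zeb2low array 2 or 3. In pre-CD8 DCs against Zeb2hi CDPs the call on Dph5 ended without pre-CD8 DC array 1 (adjusted p = 0.0559). Those on Tufm (up to 0.149), Sephs2 (up to 0.113) and Ppp1r15b (up to 0.163) ended without Zeb2hi array 2, Zeb2hi array 3 or pre-CD8 DC array 2. The call on Guf1 against Zeb2low CDPs ended in 7 of the 8 fits (up to 0.192). Among the genes named here, in the all-array replicate block the calls ended on Dph6 in Zeb2low CDPs (adjusted p = 0.0575), on Tufm (0.0681), Sephs2 (0.0522) and Ppp1r15b (0.0728) in pre-CD8 DCs against Zeb2hi CDPs, and on Guf1 against Zeb2low CDPs (0.111).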

How the data were processed

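RNA of 8 samples was measured on Affymetrix mouse arrays. The values the authors deposited are linear intensity values of probe sets. Per the submitters' processing notes the tools were RMA and Affymetrix Expression Console, with versions not given in the sources used here. These values come without detection calls, and differences near the floor are understated. Of 28853 probe sets, 21789 carry 1 gene in the platform annotation, 1621 several and 5443 none, and the last 2 kinds were left out.

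After log2 transformation a probe set was kept if it exceeded the 40th percentile of an array on 2 arrays or more, and the one with the highest mean stood for its gene (13356 genes). All 8 arrays entered 1 fit in limma 3.58.1 (lmFit and eBayes, two-sided; R 4.3.3; 5 residual degrees of freedom), with Benjamini-Hochberg adjustment over all genes within each comparison, at 0.05. Adjusted p means this value, and ± with a difference is limma's standard error. Precision is limited by the number of arrays. The fit was tested on simulated data with independent noise for each gene. These held no deviations or intensity shifts shared across an array, so that test does not cover them.

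The named genes were the up to 10 largest called members per comparison and direction, a fixed set of core factors, the 3 members of highest and of lowest signal, and up to 3 called genes of each pathway list and direction. Others printed were chosen after their values were seen. The members and lists were chosen with earlier results of these data known. Deviations from the group means correlated between CDP arrays of the same number (0.478, 0.407 and 0.308 as Pearson r over genes), so the numbers were taken to pair them, from the values and not the labels. Alternatives were quantile normalization, median centring, no filter and a stricter one, array weights, an intensity trend, other probe set rules, the replicate block, fits of 2 groups alone and fits without arrays.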

Additional observations from a re-analysis of the deposited data

How the results depend on the processing

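All differences called in the main analysis kept their sign under every alternative run. Quantile normalization moved the median of the members to -0.49 in Zeb2low and to -0.36 in pre-CD8 DCs, both against Zeb2hi CDPs, and left 17 and 10 lower members and 16 past the F test (7.19%, 8.46% and 14.8% of all genes). Median centring moved the first median to -0.80 (31 lower, and 16.7% of all genes) and shifted the median of all genes to -0.14; under it 14.2% of all calls between the CDP fractions were higher, against 30.4% in the main analysis and 40.9% under quantile normalization. Array weights gave 35 lower members in Zeb2low CDPs, and 20.0% of all genes were lower there. Counts of higher members in pre-CD8 DCs against Zeb2hi CDPs were 2 with every probe set tested and 2 without Zeb2low array 1 and pre-CD8 DC array 1 together, where the median against Zeb2low CDPs was 0.055.

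Leaving out 1 array gave 7 to 28 lower members in Zeb2low and 7 to 18 in pre-CD8 DCs against Zeb2hi CDPs, with medians of -0.69 to -0.60 and -0.57 to -0.41, 0 to 1 higher members in pre-CD8 DCs, and 6 to 23 past the F test. The shares of all genes at these lowest and highest counts were 2.74% and 10.7%, 5.33% and 13.1%, and, for the F test, 5.54% and 14.7%. Signs were followed for all called members and for some of the uncalled ones. Uncalled members such as Eif4enif1 and Eif4e1b were not followed, so turns of sign among them are not listed. Among the members followed, signs turned between the CDP fractions only for uncalled ones: Eif2s3y (0.053 under quantile normalization), Eif5 (0.19 there), Eif5b (0.11 there and 0.016 with array weights) and Eif4ebp2 (0.32 under quantile normalization, 0.15 with array weights and 0.36 without the 2 arrays together). Without 1 array Eif2s3y lay between -0.26 and 0.11, Eif5b between -0.23 and 0.12 and Eif4ebp2 between -0.22 and 0.36. Eif4e in pre-CD8 DCs against Zeb2low CDPs was -0.16 with the probe set among its own neighbours. The cause was not tested.

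In the all-array replicate block, 23 members were lower in Zeb2low and 10 in pre-CD8 DCs, and 18 passed the F test (8.46%, 7.47% and 11.9% of all genes). Over the CDP arrays alone 35 were lower in Zeb2low CDPs, and 19.4% of all genes. The pre-CD8 DC numbers did not pair with the Zeb2low numbers (r = -0.40 and -0.59).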
